A study of Mus musculus with 9 samples.

Results

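The choroid plexus is the epithelium in the brain ventricles that secretes cerebrospinal fluid. Its cells carry ions and water from blood to ventricle, move folate and thyroid hormone into the fluid, and keep a fate set by the homeobox factor Otx2. The genes described here are 9 that this epithelium is known to express: Ttr and Enpp2, whose proteins are secreted, the receptors Folr1, Kl and Prlr, the channels and transporters Clic6, Aqp1 and Slc4a5, and Otx2. They were chosen by name, and every non-control probe whose RefSeq accession maps to them was taken, which gave 12 of 55681 probes and 9 of 30837 genes tested. All 12 probes were well above background on every array, except the dimmer Slc4a5 probe on VEGF array 1.

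Brain RNA came from adult male C57BL/6 mice (C57/BL6 in the strain label) aged 50 to 53 days, with 3 arrays of separate animals in each of 3 groups. Sham mice had sham surgery, at ages of 50, 52 and 52 days, and no injection is stated for them. MCAO mice, aged 50, 52 and 53 days, underwent 90 min of middle cerebral artery occlusion, and 3 h after reperfusion 1 µl of phosphate-buffered saline was injected into the right lateral ventricle. VEGF mice, aged 50, 50 and 53 days, were treated alike except that the 1 µl held recombinant human VEGF-A165, a growth factor of blood vessels, at 10 µg/ml. Brains were taken 24 h after reperfusion, 21 h after the injection, and the labels do not state which part of the brain was homogenised. The injection went into the fluid space that the choroid plexus lines, so ischaemia and the injection itself cannot be told apart in comparisons with sham. The study's title asks how VEGF affects expression after focal ischaemia.

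Levels are given as log2 of the processed signal relative to the 75th percentile of the same array, so that 0 is the 75th percentile and 1 unit is a factor of 2. Single values are listed in the order of the array numbers 1 to 3 in each group. Differences between groups are in the same log2 units with the standard error of limma's fit over all 9 arrays. A gene was called at an adjusted p under 0.05 over all genes tested. The 75th percentile signal was between 848 and 2070 on the 9 arrays, and the number of arrays limits the precision. The sham arrays share 1 slide and the 6 ischaemic arrays a second, so slide and ischaemia cannot be told apart. MCAO array 1 was scanned on another day and processed without spatial detrending. MCAO array 1 and VEGF array 1 stood apart from the other ischaemic arrays: the median of 14 neuronal markers was -2.43 relative to the sham mean on both of them, against -0.60 to -0.32 on the other 4. Values without both are given below.

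RefSeq promoter windows (GRCm38.p6) were at hand for Kl, Aqp1, Slc4a5, Otx2 and Prlr, which is 5 of the 9 genes, with 10 windows among them. Folr1, Enpp2, Clic6 and Ttr had no entry. The letters TAATCC, the core motif that Otx2 binds, were searched on both strands over the 250 bases before and 50 bases after each start. The motif was in 1 of the 10 windows, an Otx2 window, and in 7.06% of all 32851 windows. A match is a description of letters and not a binding site. The 2 sequences below are the 250 bases before the start for that Otx2 window, the only match, and for Aqp1, the gene whose levels departed from the others. Capitals mark the motif, which reads GGATTA on the printed strand and begins 211 bases before the start.
Otx2 (chr14:48665110-48665359, minus strand): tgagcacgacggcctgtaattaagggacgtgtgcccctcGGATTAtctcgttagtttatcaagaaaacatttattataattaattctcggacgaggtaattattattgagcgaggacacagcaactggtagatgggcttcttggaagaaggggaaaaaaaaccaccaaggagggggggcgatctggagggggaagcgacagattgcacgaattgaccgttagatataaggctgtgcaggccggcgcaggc
Aqp1 (chr6:55336049-55336298, plus strand): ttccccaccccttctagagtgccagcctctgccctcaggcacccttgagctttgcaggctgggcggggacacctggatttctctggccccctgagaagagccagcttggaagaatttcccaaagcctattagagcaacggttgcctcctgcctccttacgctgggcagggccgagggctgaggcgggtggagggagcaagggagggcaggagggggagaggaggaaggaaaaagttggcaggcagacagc
The Aqp1 window was 62.0% G and C and the Otx2 window 48.4%. The other 3 Otx2 windows, the 3 Prlr windows and those of Kl and Slc4a5 held no match.

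Of the 9 genes, 8 shared a pattern across arrays that did not follow the groups, and Aqp1 did not share it in the VEGF arrays. Ttr, Folr1, Kl, Enpp2, Clic6, Otx2, Prlr and Slc4a5 were much lower on VEGF arrays 1 and 3 than on VEGF array 2, by between 2.88-fold for Enpp2 and 564-fold for Ttr. Aqp1 was higher on all 6 ischaemic arrays than on every sham array. In limma's fit 0 of the 9 genes were called in MCAO against sham, where 2.81% of all genes were called (2.28% higher and 0.535% lower). In VEGF against sham 0 of 9 were called against 2.43% of all genes (2.07% higher and 0.357% lower), and in VEGF against MCAO 0 of 9 against 0.00649%. At an unadjusted p under 0.05 there was 1 of the 9 genes in each comparison: Aqp1 in both comparisons with sham, against 21.4% and 23.5% of all genes, and Ttr in VEGF against MCAO, against 2.78% of all genes.

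**Figure D1:**
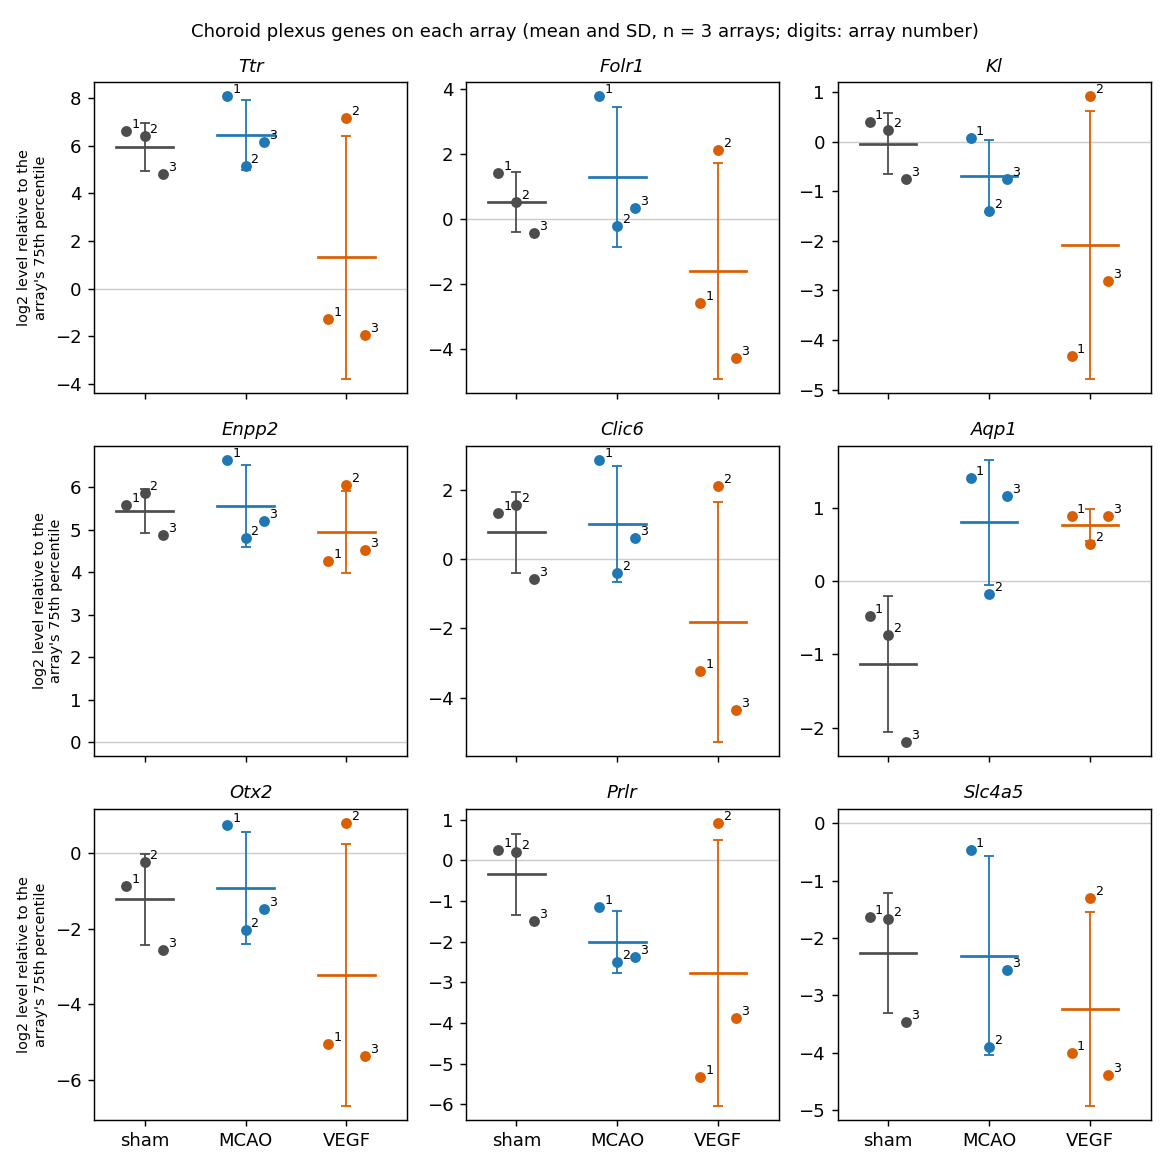
Log2 level of each of the 9 genes relative to the array's 75th percentile (vertical axis) by group (horizontal axis). Points are single arrays with their number, horizontal lines are group means and bars are SD (n = 3 arrays). VEGF array 2 lies above VEGF arrays 1 and 3 for all genes but Aqp1, and Aqp1 alone has every ischaemic array above every sham array.

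Among the secreted proteins, Ttr encodes transthyretin, which carries thyroid hormone and, with Rbp4, retinol. Its level was 6.63, 6.42 and 4.81 across sham arrays 1 to 3, 8.08, 5.16 and 6.14 on MCAO arrays 1 to 3, and -1.29, 7.18 and -1.96 on VEGF arrays 1 to 3. The processed signals behind these levels were 37600 to 124000 on sham arrays, 63200 to 215000 on MCAO arrays, and 295, 225000 and 340 on VEGF arrays 1 to 3. VEGF arrays 1 and 3 were lower than all other arrays, while VEGF array 2 was within the range of the MCAO arrays, so VEGF overlapped both other groups. The SD within VEGF was 5.10, the third largest of all 30837 genes, where the median SD was 0.39. Ttr differed by 0.50 ± 2.15 between MCAO and sham (adjusted p = 0.905, limma) and by -4.64 ± 2.15 between VEGF and sham (adjusted p = 0.230). Between VEGF and MCAO it differed by -5.15 ± 2.15 (95% interval -10.05 to -0.25, unadjusted p = 0.0415, adjusted p = 1.00, limma).

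Enpp2 encodes autotaxin, the secreted enzyme that makes lysophosphatidic acid, and is also expressed in oligodendrocytes. Its level was 5.59, 5.88 and 4.88 across sham, 6.64, 4.82 and 5.21 across MCAO and 4.26, 6.05 and 4.53 across VEGF. The order of arrays was like that of Ttr, with VEGF arrays 1 and 3 lowest and MCAO array 1 highest, over a range of 2.38 log2 units where Ttr spanned 10.03. Its differences were 0.11 ± 0.60 in MCAO against sham, -0.50 ± 0.60 in VEGF against sham and -0.61 ± 0.60 in VEGF against MCAO (adjusted p = 0.927, 0.607 and 1.00, limma). The median of 10 oligodendrocyte markers relative to the sham mean was -0.94, 0.96 and -0.04 across sham, 1.86, 1.09 and 0.22 across MCAO and 0.14, 0.73 and 0.48 across VEGF. All 10 were well above background on every array, and their summed level was 95.1 to 371 in sham, 261 to 717 in MCAO and 252 to 341 in VEGF. Their part in the level of Enpp2 was not tested.

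Of the receptors, Folr1 encodes folate receptor alpha, which takes folate across the epithelium into the fluid. It read 1.41, 0.53 and -0.44 across sham, 3.76, -0.22 and 0.33 across MCAO and -2.60, 2.11 and -4.30 across VEGF. MCAO array 1 was higher than any other array by over 1 unit, and VEGF array 2 was above all sham arrays. Folr1 differed by 0.79 ± 1.62 in MCAO against sham and by -2.10 ± 1.62 in VEGF against sham (adjusted p = 0.796 and 0.427, limma). Between VEGF and MCAO the difference was -2.89 ± 1.62 (95% interval -6.59 to 0.81).

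Kl encodes alpha-Klotho, a co-receptor for the hormone Fgf23 that is also shed into the fluid. Its level was 0.40, 0.23 and -0.75 across sham, 0.06, -1.40 and -0.75 across MCAO and -4.33, 0.91 and -2.82 across VEGF. Here VEGF array 1 was the lowest array and VEGF array 2 the highest, and MCAO array 1 was not above the sham arrays, as it was for Ttr, Folr1 and Enpp2. Kl differed by -0.65 ± 1.14 in MCAO against sham, by -2.04 ± 1.14 in VEGF against sham and by -1.39 ± 1.14 in VEGF against MCAO (adjusted p = 0.759, 0.296 and 1.00, limma).

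Prlr encodes the prolactin receptor, which signals through Stat5. It read 0.26, 0.21 and -1.48 across sham, -1.14, -2.50 and -2.39 across MCAO and -5.34, 0.91 and -3.86 across VEGF. MCAO arrays 2 and 3 were below all sham arrays, MCAO array 1 lay between sham array 3 and the other 2, and VEGF array 2 was the highest of all arrays. Prlr differed by -1.67 ± 1.39 in MCAO against sham and by -2.43 ± 1.39 in VEGF against sham (adjusted p = 0.496 and 0.305, limma). In VEGF against MCAO it differed by -0.75 ± 1.39 (95% interval -3.94 to 2.43).

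Among channels and transporters, Clic6 encodes a chloride intracellular channel protein. Its level was 1.31, 1.56 and -0.57 across sham, 2.86, -0.41 and 0.62 across MCAO and -3.24, 2.12 and -4.35 across VEGF. As for Ttr, VEGF arrays 1 and 3 lay below all others and MCAO array 1 lay above them. Clic6 differed by 0.26 ± 1.60 in MCAO against sham, by -2.59 ± 1.60 in VEGF against sham and by -2.85 ± 1.60 in VEGF against MCAO (adjusted p = 0.936, 0.334 and 1.00, limma).

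Slc4a5 encodes NBCe2, the sodium bicarbonate cotransporter of the ventricular face of the epithelium. It read -1.64, -1.67 and -3.47 across sham, -0.46, -3.91 and -2.56 across MCAO and -4.01, -1.29 and -4.40 across VEGF. Sham array 3 and MCAO array 2 were close to the low VEGF arrays, so the groups overlapped throughout. The differences were -0.05 ± 1.06 in MCAO against sham, -0.97 ± 1.06 in VEGF against sham and -0.92 ± 1.06 in VEGF against MCAO (adjusted p = 0.980, 0.569 and 1.00, limma).

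Aqp1 encodes the water channel aquaporin-1, which lies in the ventricular face of the epithelium and is also a protein of red blood cells. Its level was -0.48, -0.73 and -2.19 across sham, 1.41, -0.17 and 1.16 across MCAO and 0.89, 0.51 and 0.89 across VEGF. Neither ischaemic group overlapped sham, which held for 1 of the 9 genes in each comparison, while 19.6% of all genes did not overlap in the higher direction for MCAO and 18.2% for VEGF (40.3% and 42.1% in either direction). Aqp1 differed by 1.93 ± 0.53 in MCAO against sham (95% interval 0.73 to 3.14, unadjusted p = 0.00578, adjusted p = 0.0942, limma), higher on 3 of 3 arrays. In VEGF against sham it differed by 1.90 ± 0.53 (95% interval 0.69 to 3.10, unadjusted p = 0.00641, adjusted p = 0.102, limma), again on 3 of 3 arrays. Both comparisons use the same sham arrays, of which sham array 3 was the lowest; without it the differences were 1.40 and 1.37 (adjusted p = 0.243 and 0.273). With array weights Aqp1 was called in MCAO against sham (1.61 ± 0.49, adjusted p = 0.0311), a setting in which 37.5% of all genes were called.

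VEGF and MCAO did not separate for Aqp1, with a difference of -0.04 ± 0.53 (95% interval -1.24 to 1.17). Its SD within VEGF was 0.22, against 5.10 for Ttr on the same arrays. Of the 7 measured red blood cell genes, Hba-a1, Hba-a2, Hbb-b2, Hbb-bs and Alas2 were higher on every ischaemic array than on every sham array. That held for 19.6% of all genes with MCAO and 18.2% with VEGF. Slc4a1 and Hbb-bt overlapped sham in both ischaemic groups. The median difference of the 7 from sham was 1.16 in MCAO and 1.06 in VEGF, and Slc4a1 differed by 0.26 ± 0.35 and 0.29 ± 0.35. limma's unadjusted p was under 0.05 for 6 of the 7 in each comparison, beside 21.4% and 23.5% of all genes. The 7 genes as a list had a higher median on every ischaemic array than on every sham array, but not in the order of Aqp1 within sham. Their median relative to the sham mean was 0.02, -0.50 and 0.47 across sham, where array 3 was the highest for them and the lowest for Aqp1, then 1.42, 1.01 and 0.91 across MCAO and 1.66, 0.78 and 0.68 across VEGF. All 7 were above background, their summed level was 126 to 250 in sham, 322 to 495 in MCAO and 303 to 555 in VEGF, and 0 of 7 were called. The 12 endothelial markers had a median relative to the sham mean of 2.11, 0.74 and 0.44 across MCAO and 2.62, 0.66 and 0.35 across VEGF, and a summed level of 58.4 to 64.2 in sham, up to 298 in MCAO and up to 391 in VEGF. Of the 12, 0 were called higher and 1 lower in each comparison with sham, beside 2.28% and 2.07% of all genes higher and 0.535% and 0.357% lower. The 1 was Slco1a4, a transporter, by -1.59 ± 0.25 and -2.23 ± 0.25 (adjusted p = 0.0150 and 0.0039, limma). It went against most of the list, where 3 of 12 differences were below 0 for MCAO and 2 of 12 for VEGF. Without MCAO array 1 and VEGF array 1, 5 were called higher and 1 lower for MCAO, and 4 higher and 1 lower for VEGF. In that fit 22.8% and 20.0% of all genes were called. The part of either cell type in the level of Aqp1 was not tested.

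Otx2 is the transcription factor of the list. It read -0.87, -0.23 and -2.56 across sham, 0.74, -2.04 and -1.48 across MCAO and -5.05, 0.78 and -5.38 across VEGF. VEGF array 2 and MCAO array 1 were the highest and VEGF arrays 1 and 3 the lowest of all. Otx2 differed by 0.29 ± 1.57 in MCAO against sham, by -2.00 ± 1.57 in VEGF against sham and by -2.29 ± 1.57 in VEGF against MCAO (adjusted p = 0.925, 0.436 and 1.00, limma).

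**Figure D2:**
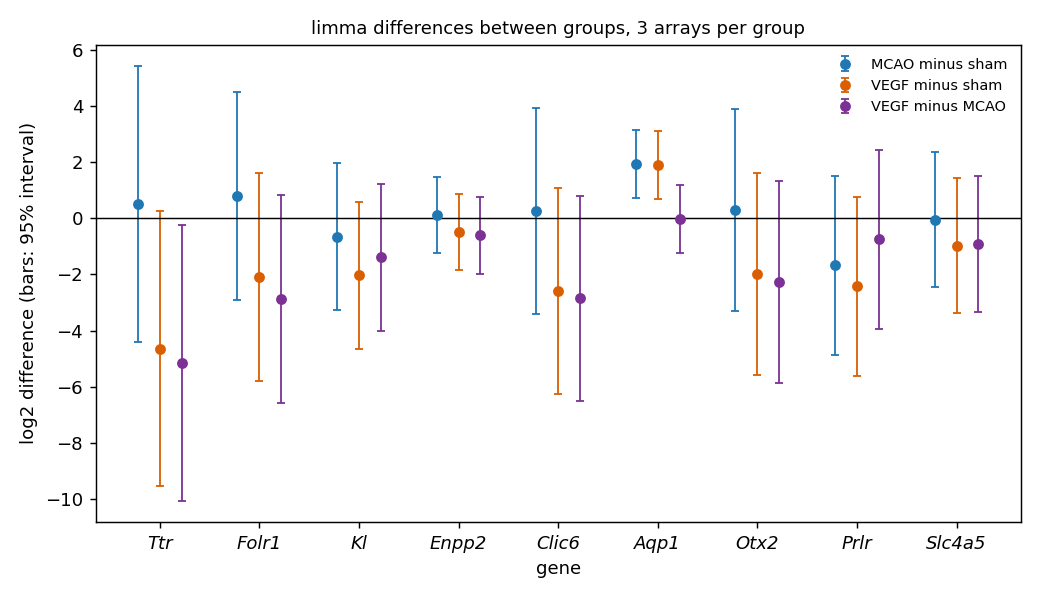
Log2 differences between groups (vertical axis) for the 9 genes (horizontal axis) from limma's fit over 9 arrays, with 95% intervals as bars. For all genes but Aqp1 the intervals of both comparisons with sham include 0, and in VEGF minus MCAO the interval of Ttr, -10.05 to -0.25, is the one that does not.

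Over the 9 genes the median difference was 0.26 in MCAO against sham, -2.04 in VEGF against sham and -1.39 in VEGF against MCAO, beside medians of -0.04, -0.12 and -0.02 over all genes tested. In VEGF against MCAO 0 of 9 genes had groups that did not overlap, against 5.80% of all genes (2.33% higher and 3.48% lower). Without MCAO array 1 and VEGF array 1, 0 of 9 were called in any comparison, beside 22.8% and 20.0% of all genes in those with sham. The differences of MCAO from sham then had the other sign for 5 genes, at -0.30 for Ttr, -0.44 for Folr1, -0.44 for Enpp2, -0.66 for Clic6 and -0.54 for Otx2, and moved to -1.03 for Kl and -0.98 for Slc4a5. The differences of VEGF from sham came nearer to 0, at -0.92 for Kl, -1.14 for Prlr, -1.08 for Otx2, -0.16 for Enpp2 and -0.59 for Slc4a5. In VEGF against MCAO Ttr stood at -3.04, Folr1 at -1.15, Clic6 at -1.22 and Otx2 at -0.54, and the other 5 genes were above 0. The VEGF arrays had the largest SD of the 3 groups for 7 of the 9 genes. Without VEGF array 2, limma called 3 of the 9 genes lower in VEGF than in sham: Ttr by -7.58 ± 0.87 (adjusted p = 0.00916), Prlr by -4.26 ± 0.71 (adjusted p = 0.0287) and Kl by -3.53 ± 0.60 (adjusted p = 0.0311). Clic6, at -4.56 ± 1.01, and Otx2, at -3.99 ± 0.92, had adjusted p = 0.0686 and 0.0747 there. In that fit 2.42% of all genes were called. These values rest on the 2 remaining VEGF arrays. Each of the 9 arrays was left out in turn, and this was the one case in which any of the 9 genes was called.

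Within each group the same array was highest or lowest for most of the 9 genes. VEGF array 2 was above both other VEGF arrays for 8 of the 9 genes, and for 22.3% of all genes. By the brightest probe of each gene it was above both by over 3 log2 units for 6 of them, Ttr, Folr1, Kl, Clic6, Otx2 and Prlr, and for 69 genes, or 0.224%, in all. The second, dimmer probes of Prlr and Folr1 also had VEGF array 2 highest, but with arrays 1 and 3 in the other order and with gaps under 3. They read -2.51, -1.66 and -2.85 for Prlr and -5.34, -2.69 and -5.24 for Folr1, so the ratios below hold for the brighter probes. The ratio of VEGF array 2 to arrays 1 and 3 was 356 and 564 for Ttr, 26.2 and 85.2 for Folr1, 41.3 and 88.6 for Clic6, 56.9 and 71.2 for Otx2, 75.8 and 27.4 for Prlr and 37.7 and 13.3 for Kl. Slc4a5 was lower in this respect, with ratios of 6.57 and 8.58, and for Aqp1 both were under 1, at 0.77 and 0.76.

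Within sham, array 3 was below arrays 1 and 2 for 9 of 9 genes, against 28.6% of all genes, and by over 1 unit for 6 of 9, against 0.684%. The smallest such gap was 0.71 for Enpp2 and the largest 1.89 for Clic6. Aqp1 took part in this pattern, at 1.47 below the lower of the other 2 sham arrays. Within MCAO, array 1 was above arrays 2 and 3 for 9 of 9 genes, against 57.1% of all genes, with gaps from 0.25 for Aqp1 to 3.43 for Folr1. In a whole-brain or regional extract, fewer cells of a type and less RNA per cell cannot be told apart, so none of these levels separates the amount of choroid plexus tissue from its expression.

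**Figure D3:**
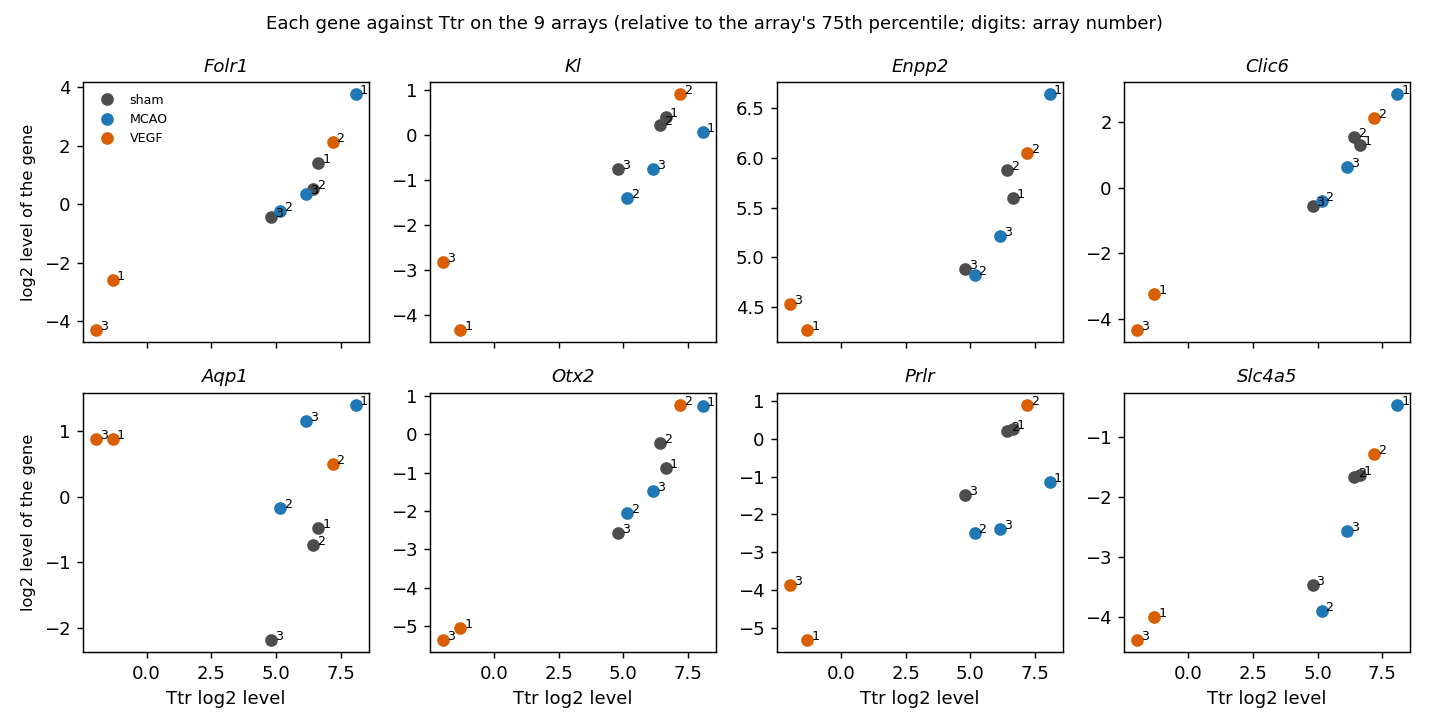
Log2 level of each of the other 8 genes (vertical axes) against that of Ttr (horizontal axis), both relative to the array's 75th percentile; each point is 1 array with its number, coloured by group. Of these, 7 genes climb with Ttr over the 9 arrays, with r from 0.82 to 0.98, while Aqp1 has 2 VEGF arrays at high Aqp1 and low Ttr.

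Measured against Ttr over the 9 arrays, Pearson's r was 0.98 for Clic6, 0.96 for Otx2, 0.94 for Folr1, 0.92 for Kl, 0.84 for Prlr, 0.83 for Enpp2 and 0.82 for Slc4a5. VEGF arrays 1 and 3 are far from the rest, and over the 7 arrays without them r was 0.99 for Clic6, 0.97 for Slc4a5, 0.96 for Enpp2, 0.96 for Folr1, 0.94 for Otx2, 0.73 for Kl and 0.50 for Prlr. For Aqp1 r was -0.18 over 9 arrays and 0.72 over 7. All genes of an array share its RNA and scaling, so these are descriptions. The slope on Ttr was below 1 for all 8 genes, from 0.65 for Clic6 to 0.18 for Enpp2 and -0.06 for Aqp1.

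Relative to the mean of the other 8 genes on the same array, each gene being set against its own sham mean, Prlr and Kl were low in MCAO and Aqp1 was high in both ischaemic groups. Prlr stood at 0.06, 0.05 and -0.11 across sham and at -2.69, -1.39 and -2.13 across MCAO. On the VEGF arrays it stood at -2.08, -0.05 and -0.30. Kl was at -0.12, -0.26 and 0.39 in sham, -1.67, -0.48 and -0.62 in MCAO and -1.28, -0.38 and 0.54 in VEGF. Every MCAO array thus lay below every sham array for Kl and for the brighter Prlr probe on this measure, and the VEGF arrays were mixed. The dimmer Prlr probe differed less between MCAO and sham, by -0.65, so this separation is given for the brighter probe alone. The share of all genes that separate on such a measure was not computed. Aqp1 was at -0.11 to 0.12 in sham, 1.08, 2.13 and 2.75 in MCAO and 5.83, 0.39 and 5.94 in VEGF. Because the measure includes Aqp1 in the mean for the other genes, and because it was made after the levels were seen, it carries no test. With the Ttr level of each array as a covariate, also added after the data were seen, Prlr differed by -1.98 ± 0.47 in MCAO against sham (adjusted p = 0.0873, limma) and 0 of the 8 genes other than Ttr were called.

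Of the 9 genes, 3 have a second, dimmer probe, and the dimmer probes showed smaller differences for Prlr and Folr1. The 2 Prlr probes gave -1.67 and -0.65 in MCAO against sham, and they gave -2.43 and -0.86 in VEGF against sham. On VEGF array 2 the brighter Prlr probe was 1.25 above its sham mean, and the dimmer probe was below its own. For Folr1 the 2 probes gave 0.79 and 0.12 in MCAO against sham, and they gave -2.10 and -1.23 in VEGF against sham, and for Slc4a5 -0.05 and -0.36 in the first comparison and -0.97 and -1.64 in the second. The signs were alike for both probes of each gene in these comparisons, and 0 of the 12 probes were called when each was fitted on its own.

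**Figure D4:**
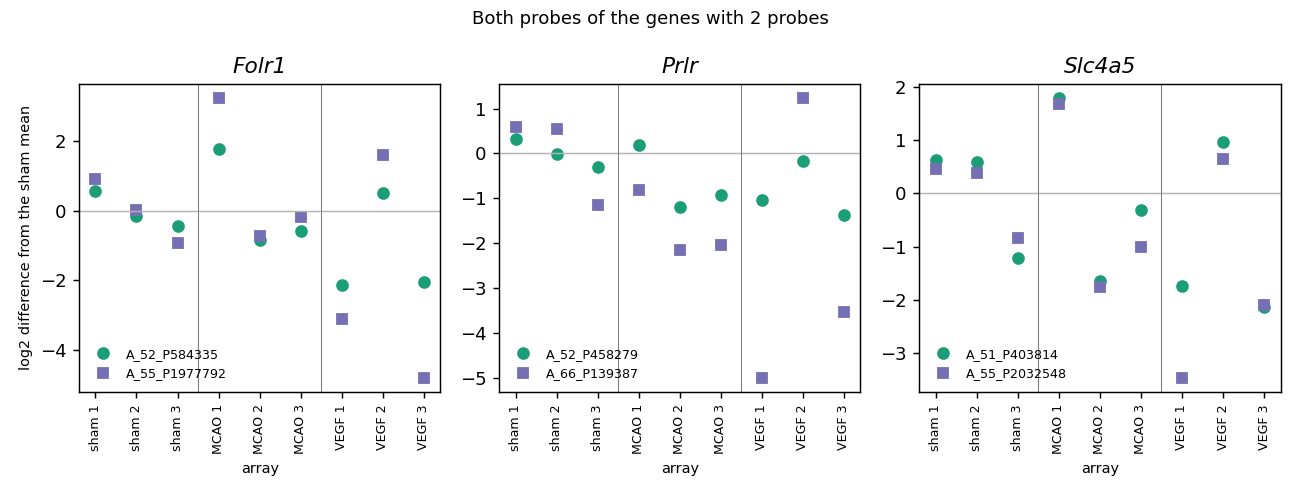
Log2 difference from the probe's own sham mean (vertical axis) on each array (horizontal axis) for both probes of Folr1, Prlr and Slc4a5; circles and squares are the 2 probes named in each panel. The Prlr probes differ in size, with -1.67 and -0.65 in MCAO against sham, while the Slc4a5 probes are farthest apart on VEGF array 1.

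Other genes known from the choroid plexus gave the same count of calls as the 9. Of 19 further transport and junction genes and 20 secreted proteins, enzymes and regulators, 0 were called in any of the 3 comparisons. The unadjusted p of limma's fit was under 0.05 for 1 and 3 of them in MCAO against sham, beside 21.4% of all genes. In VEGF against sham it was under 0.05 for 2 and 2 of them, beside 23.5% of all genes. Their medians relative to the sham mean on VEGF arrays 1, 2 and 3 were -0.29, 0.77 and -0.68 for the transport genes and -0.23, 0.86 and -1.81 for the secreted ones, so that array 2 had the highest median there too. It was above both other VEGF arrays for 11 of the 19 and 14 of the 20 genes, and by over 3 units for 3 and 1 of them, beside 8 of 9 and 6 of 9 above. MCAO array 1 was above the other MCAO arrays for 16 of 19 and 20 of 20 of them, and sham array 3 below the other sham arrays for 15 of 19 and 19 of 20. Over all genes the shares were 22.3% and, by over 3 units, 0.224% for VEGF array 2, 57.1% for MCAO array 1 and 28.6% for sham array 3.

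The genes of these lists with an unadjusted p under 0.05 in MCAO against sham differed in direction. Lbp, Steap1 and Col8a1 were above sham and Sostdc1 was below it, as they were in VEGF against sham. There the transport gene of smallest p was Slc31a1, which differed by 0.70 ± 0.28 (unadjusted p = 0.0351, adjusted p = 0.187, limma). Of all these genes 0 passed the adjusted threshold. Lbp, which binds bacterial lipopolysaccharide, was at -0.36, -0.99 and -1.75 in sham, 1.54, 0.49 and 0.22 in MCAO and 1.49, 0.77 and -0.06 in VEGF, with differences from sham of 1.78 ± 0.52 and 1.77 ± 0.52 (adjusted p = 0.111 and 0.114, limma). Steap1, a metalloreductase, differed by 2.04 ± 0.65 in MCAO against sham and by 1.56 ± 0.65 in VEGF against sham (adjusted p = 0.137 and 0.201, limma). Every ischaemic array was above all sham arrays for Lbp, Steap1 and Col8a1, as for Aqp1. The same held for 19.6% of all genes with MCAO and for 18.2% with VEGF. Col8a1, a collagen chain, differed by 1.18 ± 0.42 in MCAO against sham and by 0.94 ± 0.42 in VEGF against sham (adjusted p = 0.168 and 0.218, limma). Sostdc1, an inhibitor of BMP and Wnt signals, was at 0.02, -0.47 and -1.87 in sham, -2.11 or lower on every MCAO array and -4.19, -1.32 and -3.34 in VEGF. It differed by -1.75 ± 0.74 in MCAO against sham and by -2.18 ± 0.74 in VEGF against sham (adjusted p = 0.223 and 0.145, limma).

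The partners and paralogs of the 9 genes were measured for 26 of 27. Of these, 2 rose in MCAO against sham and the same 2 rose in VEGF against sham: Clic1, a paralog of Clic6, and Stat5a, a signal carrier of the prolactin receptor. Over all genes 2.28% and 2.07% were called higher. Clic1 was at -0.52, 0.15 and 0.14 across sham, 4.35, 3.65 and 3.60 across MCAO and 4.66, 2.48 and 2.37 across VEGF, and rose by 3.94 ± 0.58 and 3.25 ± 0.58 (adjusted p = 0.0120 and 0.0268, limma). Stat5a was at -3.99, -2.93 and -3.58 across sham, -0.52, -1.53 and -1.25 across MCAO and -0.68, -1.65 and -1.67 across VEGF. It rose by 2.40 ± 0.40 and 2.17 ± 0.40 (adjusted p = 0.0195 and 0.0305, limma). Both lacked the pattern of the 8 genes, since VEGF array 2 was not above VEGF array 1. Without MCAO array 1 and VEGF array 1, 6 of the 26 were called higher and 1 lower for MCAO, and 4 higher and 1 lower for VEGF. In that fit 22.8% and 20.0% of all genes were called.

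Of 10 macrophage and neutrophil markers measured, 7 rose in each comparison with sham, among them Msr1 and Lyz2. Of all genes, 2.28% and 2.07% were called higher. Msr1 was well above background on 6 of the 9 arrays and Ccr2 on 7, and both were lowest in sham. These 2 genes thus passed the filter through the ischaemic arrays, and the size of their rise rests on sham values near background. The summed level of the 10 markers was 51.9 to 66.6 in sham, 93.4 to 227 in MCAO and 84.9 to 219 in VEGF. Their part in the rise of Clic1 and Stat5a was not tested. Both comparisons share the sham arrays.

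Outside the 9, the 10 genes with a symbol whose levels followed their mean most closely over the 9 arrays were Nppa, Wdr86, Tmprss11a, Prr32, Kcnj13, Krt23, Cfap65, Cox8b, Tex22 and Kcne2, with Pearson's r from 0.94 to 0.98. On VEGF arrays 1 and 3 Tmprss11a was at -8.18 and -9.22 and Krt23 at -8.17 and -7.65. On VEGF array 1 both were below the dimmer Slc4a5 probe, at -7.53, which was not well above background there. Without VEGF arrays 1 and 3 r was 0.96 for Nppa, 0.95 for Wdr86 and 0.94 for Tex22, and 0.80 to 0.94 for the other 7. Kcnj13 and Kcne2, potassium channel subunits of the epithelium, and Cox8b, a subunit of cytochrome c oxidase, were among the further choroid plexus genes fixed as lists. Kcne2 was at -0.55, -0.16 and -2.34 across sham, -0.98, -3.35 and -2.05 across MCAO and -4.65, -0.03 and -4.55 across VEGF. Outside the 9, the 5 genes with a symbol nearest to Ttr alone were Tmprss11a, Nppa, Wnt8b, Cfap65 and Kcnj13, with r from 0.93 to 0.96. Without VEGF arrays 1 and 3 r was 0.98 for Nppa and 0.88 for Tmprss11a, and fell to 0.80 for Cfap65, 0.79 for Kcnj13 and 0.68 for Wnt8b.

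**Figure D5:**
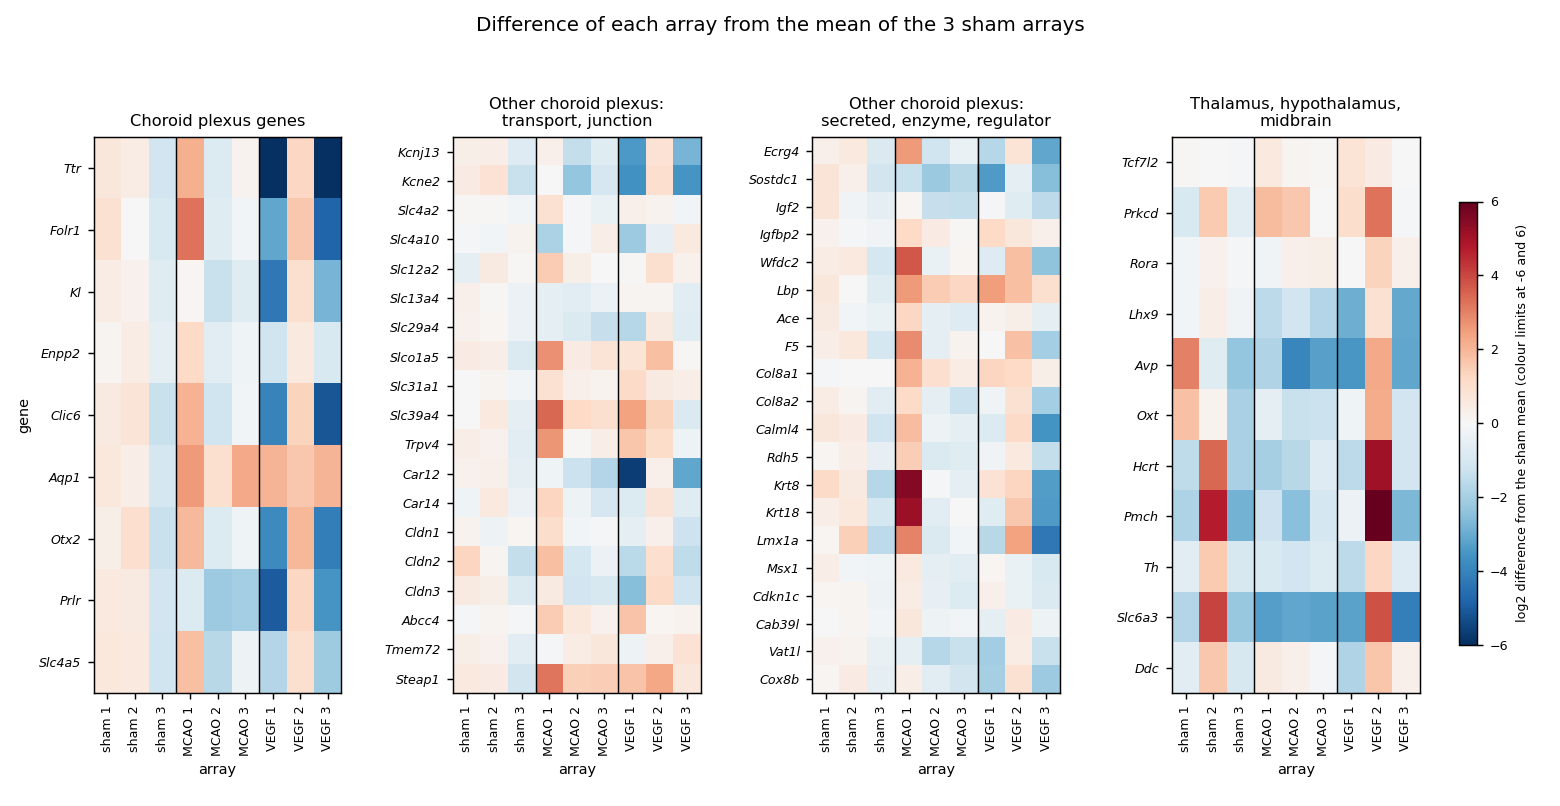
Log2 difference of each array (columns) from the mean of the 3 sham arrays for single genes (rows), in colour, with limits at -6 and 6. The 9 choroid plexus genes are at the left, followed by 19 further transport genes, 20 secreted proteins, enzymes and regulators, and 11 genes of thalamus, hypothalamus and midbrain. VEGF arrays 1 and 3 are blue for 8 of the 9 genes, VEGF array 2 is red, and the right panel has VEGF array 2 and sham array 2 as its highest arrays.

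Genes of deep brain regions moved with the choroid plexus genes on VEGF array 2. The summed level of 11 genes of thalamus, hypothalamus and midbrain was 12.9, 49.3 and 6.59 across sham, 13.1, 11.9 and 8.89 across MCAO and 8.33, 99.8 and 9.08 across VEGF. VEGF array 2 and sham array 2 were thus the highest, and 5 of the 11 genes, Slc6a3, Pmch, Hcrt, Avp and Lhx9, were over 3 log2 units above both other VEGF arrays. Hcrt, a hypothalamic neuropeptide, was at -2.00, 4.63 and -1.57 across VEGF and at -1.97, 3.01 and -2.37 across sham. All 11 were above background on every array and 0 were called in any comparison. The order of arrays was not that of the 9 genes throughout: sham array 1 had the region genes low, with a median of -0.61 relative to the sham mean, and the 9 genes high, at 0.60. Ependymal markers, from the cells that line the ventricles, had medians of -0.33, 0.42 and -0.62 on VEGF arrays 1, 2 and 3. Their summed level was 17.9, 30.5 and 32.2 there, so array 2 was the highest by the median but not by the sum. The part of region or ependymal tissue in the levels of the 9 genes was not tested.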

How the data were processed

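The authors deposited scanner files of 9 1-colour Agilent arrays and a table of values. Per the file headers, Agilent Feature Extraction 10.7.1.1 (also named in the submitters' processing notes) made the processed intensity by background subtraction, spatial detrending and a surrogate near background, without scaling between arrays. The deposited detrending factor is a ratio per spot. MCAO array 1 was not detrended. The deposited table holds log2 values made alike between arrays by a method not given in the sources used here; each column's median was 6.98.

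From the intensity, each array's levels were set on the log2 scale against its own 75th percentile (non-control probes). The filter kept 43921 of 55681 probes, those above background throughout at least 1 group. Symbols came through RefSeq accessions (GRCm38.p6) for 26576 probes, and 17585 of the 30837 genes tested have one; other probes keep the array's name. The brightest probe stood for a gene. The test was limma 3.58.1 (R 4.3.3), 1 fit of all arrays, two-sided, Benjamini-Hochberg at 0.05; the script was tested on simulated data. Same-numbered arrays were not paired by the labels.

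All 9 genes are named; of each list, up to 4 genes past the threshold or up to 3 of smallest p could be named. The genes and lists were chosen with earlier results of these data known. Alternatives were another background correction, normalization, filter, probe rule, covariate, block or weighting, and arrays left out. Array scaling sets the zero of all differences, and the surrogate bounds the dimmest values.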

Additional observations from a re-analysis of the deposited data

How the results depend on the processing

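In MCAO against sham, 0 of the 9 genes were called in every setting run but array weights, which called 1, Aqp1. In VEGF against sham 0 were called except without VEGF replicate 2, which called 3, so the count with arrays left out in turn ran from 0 to 3. In VEGF against MCAO it was 0 in every setting. The difference of Aqp1 from sham kept its sign in every setting in both comparisons. Of the alternatives' differences for single genes, 62 had the other sign than the reported difference, and the cause was not tested. With array weights these were, in MCAO against sham, Ttr -0.26, Folr1 -0.22, Enpp2 -0.47, Clic6 -0.69 and Otx2 -0.60, in VEGF against sham, Enpp2 0.042, and in VEGF against MCAO, Kl 0.66, Enpp2 0.51, Aqp1 0.26, Otx2 0.45, Prlr 1.62 and Slc4a5 0.97. limma's default estimate of the weights did not converge, and the gene-by-gene estimate was used. Without both MCAO array 1 and VEGF array 1 they were Ttr -0.30, Folr1 -0.44, Enpp2 -0.44, Clic6 -0.66 and Otx2 -0.54 in MCAO against sham and Kl 0.12, Enpp2 0.28, Aqp1 0.21, Prlr 0.97 and Slc4a5 0.39 in VEGF against MCAO. With the Ttr level as a covariate, added after the data were seen, they were Enpp2 -0.0076, Clic6 -0.11 and Otx2 -0.070 in MCAO against sham, Folr1 1.18, Kl 0.29, Enpp2 0.57, Clic6 0.78, Otx2 1.34, Prlr 0.44 and Slc4a5 0.97 in VEGF against sham, and Folr1 0.75, Kl 1.19, Enpp2 0.58, Clic6 0.89, Aqp1 0.11, Otx2 1.41, Prlr 2.42 and Slc4a5 1.24 in VEGF against MCAO. Quantile normalization gave Enpp2 -0.040 and the authors' deposited table Enpp2 -0.040 in MCAO against sham, where age as a covariate gave Slc4a5 0.17, and scaling to the median gave Aqp1 0.12 in VEGF against MCAO. With each array left out in turn, the differences that changed sign ran, in MCAO against sham, for Slc4a5 from -0.98 to 0.75, Ttr from -0.30 to 1.15, Enpp2 from -0.44 to 0.48, Clic6 from -0.66 to 0.97, Otx2 from -0.54 to 0.85 and Folr1 from -0.44 to 1.55, and in VEGF against MCAO for Aqp1 from -0.52 to 0.27, Slc4a5 from -1.89 to 0.0027 and Prlr from -2.59 to 0.53. With the replicate number as a block 0 of the 9 genes were called in each comparison, and 1229, 946 and 2 genes in all. The labels do not say that a number marks a pair, and same-numbered arrays deviated from their group means with r from -0.11 to 0.59. The scaling moved the median of all genes from -0.02 to 0.14 in VEGF against MCAO, so differences of that size depend on it. Signal over background limited 1 probe, the dimmer Slc4a5 probe on VEGF array 1.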

Other observations

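The genes that were over 3 log2 units higher on VEGF array 2 than on both other VEGF arrays numbered 69, of which 52 have a symbol. The largest gap, 9.57, was that of a transcript without a symbol, and Olfr550 and Znrf4 had gaps of 7.69 and 6.82. Beside 6 of the 9 choroid plexus genes and such others, the list held genes known from hypothalamus and other deep regions. Those below were picked from it after their values were seen and do not stand for the whole list. Agrp, the appetite peptide of the arcuate nucleus, was at 2.02 on VEGF array 2 and between -5.04 and -3.19 on the other 8 arrays. Pmch, the precursor of melanin-concentrating hormone, was at 4.89 on VEGF array 2 and 3.22 on sham array 2, and between -4.33 and -1.83 on the others. Slc6a3, the dopamine transporter, was at 2.77 and 3.00 on those arrays and between -5.12 and -2.78 elsewhere. Six3, a homeobox gene, was at -0.13 on VEGF array 2 and 0.51 on sham array 2. It was at -1.32 on sham array 1 and -1.40 on MCAO array 1, and between -6.44 and -4.23 on the others. Gbx2 was at -1.31 on VEGF array 2 and between -6.32 and -3.79 on the rest. These are values of single arrays and carry no test.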
